A study of Rattus norvegicus with 12 samples.

Results

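Heart muscle genes were followed through 12 arrays of rat lung. The set holds 40 genes of the contractile apparatus, calcium handling, energy supply and hormone output of heart muscle cells. Its members are the probe sets that the platform annotation names by 1 of these symbols. Of the 40 genes, 39 were measured, by 59 of the 31042 probe sets on the array, and they make up 39 of the 14217 genes that had a value. Actc1, the cardiac actin, was not named by a probe set with a single symbol and is not reported. A gene with several probe sets was read from the brightest on average; 28 members had 1 probe set and 11 had several.

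The arrays were hybridised with biotin-labelled RNA made from 6 ug of total lung RNA of wild type male Sprague Dawley rats of 250 to 350 g. Each of the 4 groups held 3 arrays. The sham group served as control. In the BD group brain death was induced by inflating a 4 Fr Fogarty catheter in the extradural space. The SEW group received SEW-2871, an agonist of the sphingosine 1-phosphate receptor encoded by S1pr1, intravenously at 0.1 mg/kg. The BD/SEW group received the same dose 15 min after brain death. The labels give neither numbers for the animals nor whether SEW rats were operated on, so p-values measure the spread between samples, which may be technical.

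Heart muscle cells contract when calcium released from the sarcoplasmic reticulum binds troponin on the thin filament and lets myosin heads of the thick filament pull on actin. In rodents this muscle is not confined to the heart: a sleeve of atrial-type muscle runs along the pulmonary veins into the lung, so a piece of lung can carry cardiac transcripts from the vein wall or from heart tissue left at the hilum. The members listed here for the atrium were Nppa, Myl4, Myl7, Sln, Kcnj3 and Tbx5, and those listed for the ventricle were Myl2, Myl3 and Myh7. In bulk tissue, fewer cells of a type and less RNA per cell cannot be told apart.

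Promoters are shown for Myoz2, Ttn, Nppa and Myl7, members with wide ranges over the arrays, and for the called gene Xirp1. The other called gene, Tnnc1, had no promoter listed. The sequences are RefSeq's, on build GRCr8, each covering 250 bases that end just before the gene's start, on the gene's strand. Capitals mark matches to TATAAA, to GATAA, or to the MEF2 box, the site of the muscle transcription factor family MEF2, on either strand. Xirp1, which encodes an actin-binding protein of the intercalated disc, lies on the minus strand (chr8:128635012-128635261) and holds a MEF2 box from -82 to -73, counted from the start. Myoz2, which encodes a calcineurin-binding Z-disc protein, lies on the minus strand (chr2:213852779-213853028) with a MEF2 box from -53 to -44. Ttn, which encodes the giant spring protein titin, lies on the minus strand (chr3:82332111-82332360) with a MEF2 box from -166 to -157. Nppa, which encodes atrial natriuretic peptide, lies on the plus strand (chr5:163711934-163712183) with TATAAA from -39 to -34 and GATAA, the core of the GATA factors' site, from -131 to -127. Myl7, which encodes the atrial regulatory myosin light chain, lies on the minus strand (chr14:84996625-84996874), and its window holds none of the 3. The window of Myh6, which is not printed, holds none of them either.
Xirp1: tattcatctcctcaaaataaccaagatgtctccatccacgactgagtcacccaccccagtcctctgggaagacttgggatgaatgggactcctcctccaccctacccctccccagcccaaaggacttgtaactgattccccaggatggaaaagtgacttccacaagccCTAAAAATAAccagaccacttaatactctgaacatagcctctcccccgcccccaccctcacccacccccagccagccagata
Myoz2: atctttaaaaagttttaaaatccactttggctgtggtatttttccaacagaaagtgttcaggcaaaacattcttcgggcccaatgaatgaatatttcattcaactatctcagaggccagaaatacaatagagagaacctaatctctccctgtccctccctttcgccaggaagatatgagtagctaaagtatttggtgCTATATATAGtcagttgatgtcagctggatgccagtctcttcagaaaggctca
Ttn: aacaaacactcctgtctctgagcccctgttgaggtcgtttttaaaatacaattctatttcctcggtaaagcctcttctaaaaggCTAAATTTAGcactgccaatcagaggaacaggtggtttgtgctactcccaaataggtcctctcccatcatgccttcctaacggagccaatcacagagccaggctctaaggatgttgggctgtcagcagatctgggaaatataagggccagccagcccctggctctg
Nppa: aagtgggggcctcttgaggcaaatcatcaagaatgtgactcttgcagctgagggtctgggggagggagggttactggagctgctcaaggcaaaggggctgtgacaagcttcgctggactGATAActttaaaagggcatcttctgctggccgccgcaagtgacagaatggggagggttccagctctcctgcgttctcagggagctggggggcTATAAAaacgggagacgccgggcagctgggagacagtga
Myl7: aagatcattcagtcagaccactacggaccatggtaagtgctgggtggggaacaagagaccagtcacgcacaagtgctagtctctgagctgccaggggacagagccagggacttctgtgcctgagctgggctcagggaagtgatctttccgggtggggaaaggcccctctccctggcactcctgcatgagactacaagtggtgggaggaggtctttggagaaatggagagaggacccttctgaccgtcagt

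A promoter was listed for 31 of the 39 measured members and for 27457 genes in all. Where a gene has several starts, as Xirp1 has 3, its first listed window is the printed one, and the gene was counted if any of its windows held the motif. A MEF2 box was counted for 7 of the 31 members, or 22.6%, against 3.32% of all genes. The 7 genes were Casq2, Cox6a2, Mybpc3, Myoz2, Smpx, Ttn and Xirp1. The CArG box, the site of serum response factor, was counted for 2 (Ldb3 and Myl3), or 6.45% against 1.62%. GATAA was counted for 12 members, or 38.7% against 24.7%, and the E-box CANNTG for 27, or 87.1% against 67.0%. Xirp1 is among both through windows other than the printed one. GGTGTGA, the T-box core, was counted for 3, or 9.68% against 3.51%. TATAAA was counted for 4, or 12.9% against 14.1%, and CATTCC, the core of the TEAD factors' site, for 4, or 12.9% against 12.9%. All motifs were searched on both strands, matches to different motifs may overlap (a MEF2 box can contain TATAAA), and a match describes the letters only.

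All 12 arrays stood close together as wholes, with medians from 7.34 to 7.41 and lower quartiles from 5.56 to 5.66 on the log2 scale. Lung identity was high in every array: the mean of 8 lung epithelium markers, among them the surfactant gene Sftpc, lay between 13.07 and 13.6, and that of 4 measured endothelial markers between 11.4 and 11.72. Of the latter Cldn5, a tight junction gene, was called higher in SEW against sham (0.58 ± 0.14, limma adjusted p = 0.038) and lower in BD/SEW against SEW (-0.83 ± 0.14, adjusted p = 0.0035). Precision is limited by the 3 arrays per group. Values near the lower quartile of an array are dim, and differences below it carry little information on amount.

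The heart genes stood high in all 3 sham arrays and in a single BD array, BD replicate 2, and low in the other 8 arrays. The mean log2 level of the 39 members was 9.89, 9.54 and 9.14 in sham replicates 1 to 3, and 6.52, 10.76 and 7.24 in BD replicates 1 to 3. It was 6.38, 6.74 and 7.48 in the SEW arrays and 6.44, 6.68 and 7.91 in the BD/SEW arrays. The sham mean was 9.52 ± 0.38 and the BD mean 8.17 ± 2.27 (SD, n = 3). The SEW mean was 6.87 ± 0.56 and the BD/SEW mean 7.01 ± 0.79 (SD, n = 3). The sham arrays thus lay above every SEW and BD/SEW array, while the BD arrays spread from near the bottom to the very top. The mean of the adipocyte markers was highest in the same 4 arrays (8.34 to 9.3 in sham, 8.72 in BD replicate 2, 6.0 to 6.83 elsewhere), and its part in the result was not tested.

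Of the 39 members, 36 were highest in BD replicate 2. The exceptions were Xirp1, highest in sham replicate 3, Atp2a2, highest in SEW replicate 2, and Cox7a1, highest in SEW replicate 1. In 31 of the 39 members the 3 sham arrays and BD replicate 2 all lay above the other 8 arrays, a pattern shown by 2.05% of all genes (292 of 14217). The range over the 12 arrays was at least 4 log2 units in 25 members, against 0.584% of all genes (83), and the median range was 4.81 log2 units against 0.65 for all genes. It lay between 1 and 2 log2 units for 2 members, Des and Cox7a1, and under 1 for 5, Myl3, Atp2a2, Nkx2-5, Tbx5 and Kcnj3.

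**Figure D1:**
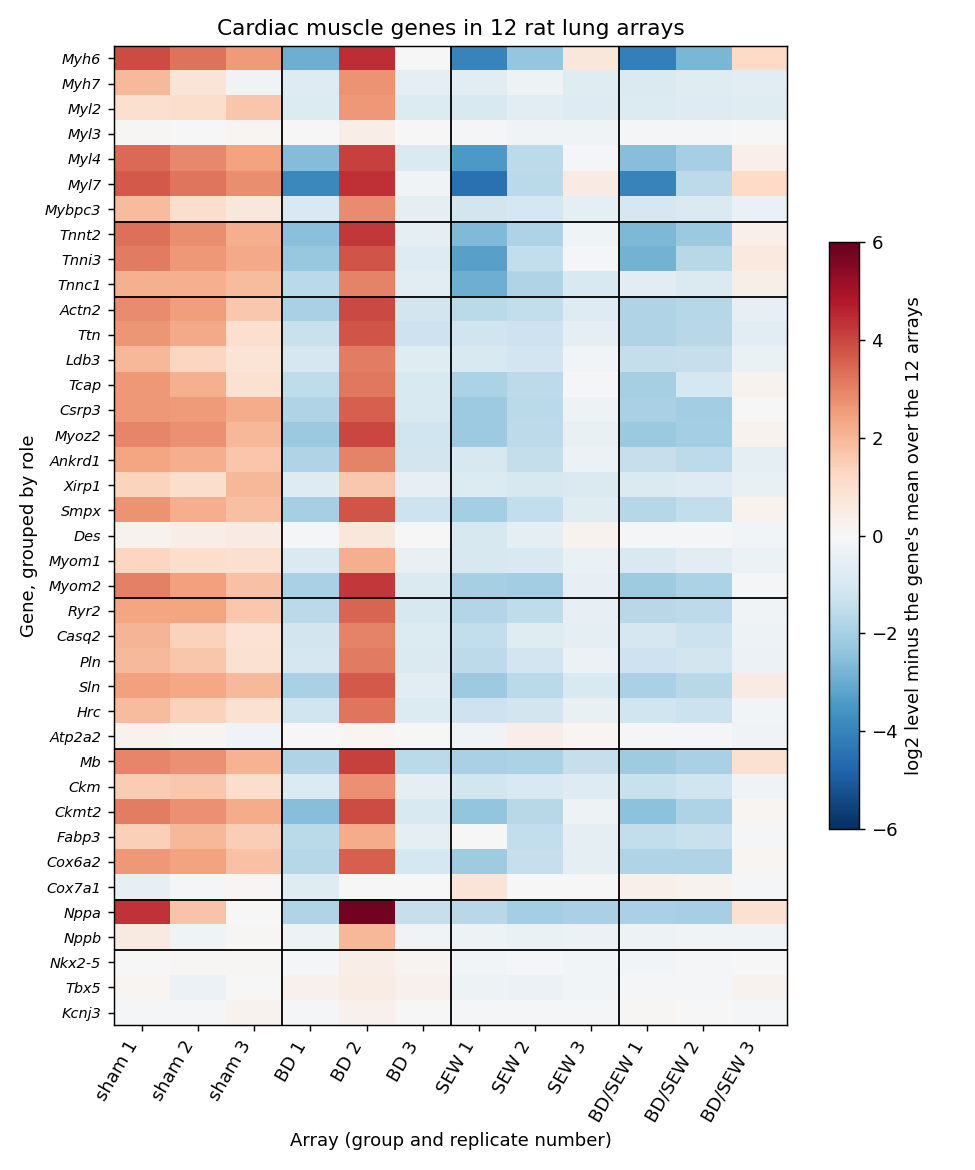
Log2 level of each of the 39 measured members (rows, grouped by role) in each of the 12 arrays (columns), shown as the difference from the gene's own mean over all arrays (red higher, blue lower). The 3 sham arrays and BD replicate 2 are red in most rows, and the rows of Myl3, Atp2a2, Cox7a1, Nkx2-5, Tbx5 and Kcnj3 are nearly pale throughout.

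The widest ranges were those of the thick filament genes Myl7 and Myh6, while Mybpc3, Myh7, Myl2 and Myl3 of that class spanned less than the members' median. Myh6, the fast alpha heavy chain that is the main adult myosin of the rodent heart, was 13.44, 12.75 and 12.08 in sham and 6.57, 13.94 and 9.54 in BD. It was 5.49, 7.19 and 10.21 in SEW and 5.43, 6.77 and 10.7 in BD/SEW, a span of 8.51 log2 units or 365-fold from lowest to highest. Replicate 3 of BD, SEW and of BD/SEW stood between the low arrays and the sham arrays. A dimmer probe set of Myh6 gave 7.13, 8.39 and 5.37 in sham and 8.72 in BD replicate 2. It gave 4.68 to 5.22 in the other arrays, a span of 4.04 log2 units. Sham replicate 3 thus stood barely above the low arrays in that probe set. Myl7 was 12.84, 12.38 and 11.94 in sham and 5.29, 13.56 and 8.95 in BD. It was 4.68, 7.53 and 9.67 in SEW and 5.15, 7.6 and 10.35 in BD/SEW, a span of 471-fold. No member spanned more than Myl7, whose 4 high arrays kept the order of the brighter Myh6 probe set. Myl4, the atrial essential light chain, was 12.4, 11.87 and 11.43 in sham, 6.42, 13.1 and 8.12 in BD, 5.55, 7.42 and 8.94 in SEW, and 6.46, 6.99 and 9.33 in BD/SEW. Mybpc3, which encodes the cardiac myosin-binding protein C, ranged from 8.0 to 11.91. Myh7 and Myh6 are close paralogs whose probes may share target, so their separate values are less certain.

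The 3 measured troponin subunits of the thin filament showed the same 4 high arrays. Tnnt2, the tropomyosin-binding subunit, was 11.71, 11.2 and 10.55 in sham and 5.89, 12.63 and 7.82 in BD. It was 5.73, 6.52 and 8.11 in SEW and 5.67, 6.16 and 8.67 in BD/SEW. A further probe set of Tnnt2 was dim and nearly flat, at 4.86 to 5.28. Tnni3, the inhibitory subunit, was 12.41, 11.91 and 11.58 in sham, 7.04, 13.07 and 8.53 in BD, 6.03, 7.83 and 9.25 in SEW, and 6.45, 7.66 and 9.88 in BD/SEW. The calcium-binding subunit differed somewhat in its low arrays. Tnnc1 was 11.16, 11.14 and 10.9 in sham, 7.39, 12.0 and 8.38 in BD, 6.06, 7.22 and 8.1 in SEW, and 8.31, 8.14 and 9.34 in BD/SEW. All 3 BD/SEW arrays of Tnnc1 lay above all 3 SEW arrays, which no other troponin showed.

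Among the 12 genes of the Z-disc, titin and the M-band, ranges ran from 1.65 log2 units for Des to 6.41 for Myom2, which encodes an M-band protein that links thick filaments. Myom2 was 10.7, 10.13 and 9.42 in sham and 5.74, 11.94 and 6.82 in BD. It was 5.7, 5.61 and 7.2 in SEW and 5.53, 5.78 and 7.6 in BD/SEW. Myoz2 was 10.26, 10.1 and 9.35 in sham, 5.15, 11.34 and 6.16 in BD, 5.17, 5.79 and 6.93 in SEW, and 5.12, 5.3 and 7.57 in BD/SEW. Both separated the 4 high arrays from the rest by over a log2 unit. Actn2, the Z-disc alpha-actinin, was 9.53, 9.2 and 8.32 in sham, 4.76, 10.65 and 5.59 in BD, 5.09, 5.24 and 5.92 in SEW, and 4.9, 5.0 and 6.23 in BD/SEW. Xirp1 was 7.09, 6.81 and 7.72 in sham and 4.99, 7.35 and 5.27 in BD. It was 4.92, 4.77 and 4.88 in SEW and 4.87, 4.98 and 5.3 in BD/SEW, so its low arrays all lay below their array's lower quartile and had little spread. Des, which encodes the intermediate filament desmin of all muscle types, lay between 9.2 and 10.85 in every array.

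Calcium handling genes followed, with 1 exception. Sln, which encodes sarcolipin, the small inhibitor of the calcium pump in atrial muscle, was 10.97, 10.81 and 10.44 in sham and 6.57, 12.15 and 7.82 in BD. It was 6.3, 6.89 and 7.59 in SEW and 6.54, 6.83 and 9.0 in BD/SEW. Ryr2, the release channel of the sarcoplasmic reticulum, was 9.25, 9.24 and 8.51 in sham, 5.29, 10.39 and 5.92 in BD, 5.16, 5.39 and 6.39 in SEW, and 5.22, 5.32 and 6.67 in BD/SEW. Pln, which encodes phospholamban, the pump's regulator in heart, was 9.85, 9.56 and 8.84 in sham, 6.89, 11.03 and 7.04 in BD, 6.35, 6.76 and 7.58 in SEW, and 6.67, 6.81 and 7.58 in BD/SEW. The low arrays of all 3 genes lay below every sham array. Atp2a2 encodes the pump itself, of which many cell types carry a version. Its probe set with the highest mean lay between 11.34 and 11.92 in all arrays. Another of its probe sets gave 12.05, 12.19 and 11.47 in sham and 12.87 in BD replicate 2, and 10.16 to 10.67 in the other 8 arrays, so the probe sets of this gene disagree.

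Of the 6 energy genes, 5 showed the high sham arrays and high BD replicate 2. Ckmt2, the creatine kinase of sarcomeric mitochondria, was 10.72, 10.4 and 9.87 in sham, 5.12, 11.6 and 6.76 in BD, 5.31, 6.02 and 7.38 in SEW, and 5.2, 5.82 and 7.76 in BD/SEW. Mb, which encodes the oxygen store myoglobin, was 10.44, 10.26 and 9.62 in sham and 5.7, 11.64 and 5.91 in BD. It was 5.56, 5.6 and 6.13 in SEW and 5.37, 5.56 and 8.44 in BD/SEW, so that of the low arrays BD/SEW replicate 3 stood apart. Cox6a2, a heart and muscle subunit of cytochrome c oxidase, was 11.04, 10.82 and 10.16 in sham, 6.73, 12.01 and 7.37 in BD, 6.31, 7.02 and 7.82 in SEW, and 6.61, 6.61 and 8.55 in BD/SEW. Cox7a1, another subunit of that enzyme, lay between 8.53 and 10.05 with its highest value in SEW replicate 1.

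The natriuretic peptides differed among the high arrays themselves. Nppa was 12.2, 9.58 and 7.86 in sham and 6.08, 13.65 and 6.48 in BD. It was 6.22, 5.83 and 5.9 in SEW and 5.94, 5.87 and 8.76 in BD/SEW. BD/SEW replicate 3 thus lay above sham replicate 3 for Nppa, and the sham arrays spread over 4.34 log2 units, against a median of 0.83 for the difference between sham replicates 1 and 3 over the 39 members. Nppb, the B-type peptide, was 6.52, 5.73 and 6.03 in sham, 5.68, 7.96 and 5.76 in BD, 5.68, 5.6 and 5.62 in SEW, and 5.67, 5.77 and 5.77 in BD/SEW. Nppb was highest in BD replicate 2 and next highest in sham replicate 1.

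The transcription factors and the channel had narrow ranges. Tbx5, a T-box factor of heart and lung development, was 9.64, 9.21 and 9.57 in sham, 9.8, 9.98 and 9.82 in BD, 9.26, 9.17 and 9.4 in SEW, and 9.49, 9.44 and 9.76 in BD/SEW. All BD arrays of Tbx5 lay above all sham arrays, by a small margin, and 15.7% of all genes separated these groups in either direction. Nkx2-5, the homeobox factor of heart muscle, lay between 5.06 and 5.66 and was highest in BD replicate 2. Kcnj3, a subunit of the acetylcholine-activated potassium channel of the atrium, lay between 6.67 and 7.05.

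Genes named for the ventricle were also higher in the 4 high arrays, though by a narrow margin for Myl3 and Myh7. Myl2, the ventricular regulatory light chain, was 6.86, 6.99 and 7.6 in sham and 5.11, 8.5 and 5.08 in BD. It lay between 5.01 and 5.22 in the 6 arrays of SEW and BD/SEW. Among the sham arrays Myl2 was highest in replicate 3, in contrast to Myh6, Myl7, Myl4 and Nppa, which were lowest there. Myh7, the slow beta heavy chain, was 6.96, 5.79 and 4.82 in sham, 4.26, 7.72 and 4.51 in BD, 4.4, 4.72 and 4.33 in SEW, and 4.17, 4.33 and 4.42 in BD/SEW. Its value in sham replicate 3 lay below that array's lower quartile and just above that in SEW replicate 2. A further probe set of each gene was dim and nearly flat over all arrays, at 4.88 to 5.27 for Myl2 and 4.32 to 4.64 for Myh7. Myl3, the ventricular essential light chain, was 6.83, 6.79 and 6.88 in sham, 7.18 in BD replicate 2 and 6.57 to 6.77 elsewhere. Replicate 3 of SEW and of BD/SEW, intermediate for Myl7 and Myl4, was low for Myl2 (5.16 and 5.18). Levels of different probes cannot be set against each other, so the share of atrial against ventricular transcripts was not estimated. The atrial members Kcnj3 and Tbx5 did not show the 4 high arrays. Of the 3 other atrial genes listed, Gja5 was measured (9.22 to 11.16) and was lowest in BD replicate 2. The ventricular factor Hey2 (8.11 to 9.25) did not show the 4 high arrays either. Irx4, another ventricular factor (4.75 to 5.15), lay below the lower quartile in all 12 arrays and was too dim to show a pattern.

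On the linear scale the high arrays formed a graded series. Relative to BD replicate 2, the median over the 25 members with a range of at least 4 log2 units was 47.3%, 42.3% and 25.9% in sham replicates 1 to 3. It was 2.09% and 4.3% in BD replicates 1 and 3, 1.81%, 2.65% and 6.25% in SEW, and 2.05%, 2.35% and 9.02% in BD/SEW. Myh6 reached 70.7%, 43.8% and 27.5% in sham, 4.74% in BD replicate 3, 7.54% in SEW replicate 3 and 10.6% in BD/SEW replicate 3. Tnni3 reached 63.3%, 44.8% and 35.6% in sham, and 4.3% and 7.08% in replicate 3 of BD and of SEW. Mb was 43.5%, 38.4% and 24.7% in sham but 1.88% in BD replicate 3, 2.19% in SEW replicate 3 and 10.9% in BD/SEW replicate 3. In the first 2 of these arrays Mb thus stood lower, on this relative scale, than Myh6 and Tnni3. Nppa was lower than those genes in the sham arrays, at 36.6%, 5.95% and 1.81% in sham and 3.37% in BD/SEW replicate 3. Its other 7 arrays lay between 0.443% and 0.694%. These 25 members were chosen by their range, and dim arrays set a floor to such percentages.

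**Figure D2:**
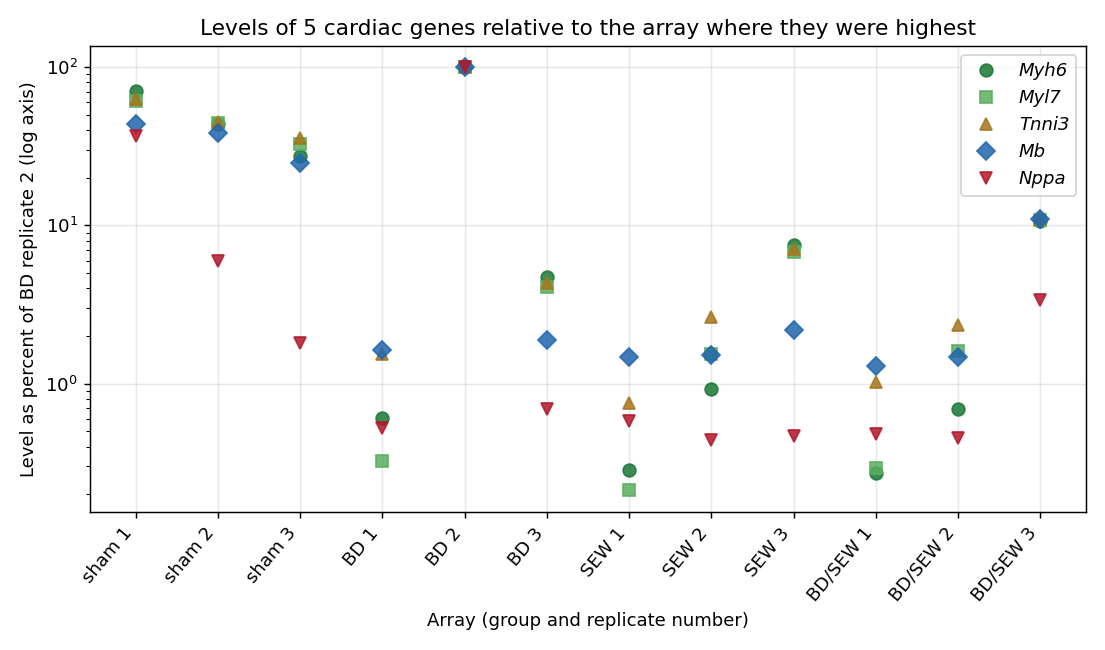
Level of Myh6, Myl7, Tnni3, Mb and Nppa in each array as a percentage of their level in BD replicate 2 (log axis, linear expression scale). The sham arrays lie between 24.7% and 70.7% for all genes but Nppa, and of the low arrays replicate 3 of each group lies highest for Myh6, Myl7 and Tnni3.

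Between single arrays the members moved unevenly. BD replicate 2 exceeded sham replicate 1 for 38 of 39 members, by a median of 0.91 log2 units and by 1.64 at most, for Myl2. BD/SEW replicate 3 exceeded SEW replicate 3 for 32 members and lay below it for 6, with a median of 0.31 and a highest value of 2.86 for Nppa. BD replicate 3 exceeded BD replicate 1 for 37 members, with a median of 0.44 and up to 3.66 for Myl7. Below the lower quartile of their array lay 1, 1 and 2 members in sham and 12, 0 and 6 in BD. The count was 15, 8 and 4 in SEW and 15, 11 and 4 in BD/SEW, so dim values were common in just those arrays whose members were low.

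The first comparison asks what brain death changed. With all 12 arrays, 0 of the 39 members passed in BD against sham, where 0.598% of all genes passed (limma, adjusted p under 0.05), and 2 members had an unadjusted p under 0.05. The median difference of BD from sham was -1.55 log2 units over the members, against 0.0 over all genes, and 34 of 39 were negative. Myl7 differed by -3.12 ± 1.92 (SE, limma adjusted p = 0.61) and Myh6 by -2.74 ± 1.82 (adjusted p = 0.65). Nppa differed by -1.14 ± 1.77 (limma adjusted p = 0.88). No member lay lower in all BD arrays than in all sham arrays, a separation that 7.74% of all genes showed. Only Tbx5 separated the groups, with BD higher by 0.39 ± 0.13 (limma adjusted p = 0.25); 15.7% of all genes separated them in either direction.

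A single array decided this result. Without BD replicate 2, 23 of the 39 members were lower in BD than in sham, where 1.2% of all genes were called lower, and the members' median was -3.11. The calls covered 10 of the 12 Z-disc, titin and M-band genes, 5 of the 6 calcium genes, 5 of the 6 energy genes, 2 of the 7 thick filament genes and 1 of the 3 troponins. Myl2 was lower by 4.16-fold (log2 -2.06 ± 0.18, limma adjusted p = 0.0016) and Actn2 by 14.3-fold (log2 -3.84 ± 0.47, adjusted p = 0.0033). Mb was lower by 19.7-fold (log2 -4.3 ± 0.74, limma adjusted p = 0.019). The largest differences did not pass: Myl7 was at -5.27 ± 1.66 (limma adjusted p = 0.21) and Myh6 at -4.7 ± 1.62 (adjusted p = 0.26). Myh6 also varied within the groups that share the fit, from 5.49 to 10.21 in SEW and from 5.43 to 10.7 in BD/SEW. The direction of the BD value of Nppa turned with 1 array: -3.6 without BD replicate 2 and 0.18 without BD replicate 1.

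The agonist without brain death was compared next. In SEW against sham 2 of the 39 members were called, both lower, where 2.49% of all genes were called lower and 6.64% in either direction. Xirp1 fell 5.1-fold (log2 -2.35 ± 0.49, limma adjusted p = 0.023), and Tnnc1 fell 15.3-fold (log2 -3.94 ± 0.95, limma adjusted p = 0.038). Larger differences of more variable genes did not pass, among them Myh6 at -5.13 ± 1.82 (limma adjusted p = 0.11) and Myl7 at -5.09 ± 1.92 (adjusted p = 0.13). Nppa was at -3.9 ± 1.77 (limma adjusted p = 0.19). The members' median was -2.98, 37 of 39 were negative, and 31 had an unadjusted p under 0.05, which 25.5% of all genes had. In 34 of 39 members every SEW array lay below every sham array, a separation that 10.6% of all genes showed in this direction; the exceptions were Des, Atp2a2, Cox7a1, Tbx5 and Kcnj3.

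These calls varied with the arrays used. Leaving out sham replicate 1, sham replicate 3 or SEW replicate 2 left 0 members called. Over all genes 3.15%, 2.72% and 3.9% were then called, against 6.64% with all arrays. Leaving out sham replicate 2, SEW replicate 1, or either replicate 1 or replicate 2 of BD/SEW left 1. In those fits 3.26% to 4.39% of all genes were called. Without SEW replicate 3 there were 3, where 4.47% of all genes were called. Without BD replicate 2, which is in neither group but enters the shared spread, 28 members were called lower, where 3.57% of all genes were. They included Nppa (log2 -3.9 ± 1.0, limma adjusted p = 0.044), all 3 troponins and 11 of the 12 Z-disc, titin and M-band genes.

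Brain death with the agonist was compared with sham, with BD and with SEW. Against sham, 1 member was called, Xirp1, which fell 4.46-fold (log2 -2.16 ± 0.49, limma adjusted p = 0.043), where 1.17% of all genes were called lower and 2.9% either way. This call was kept in 4 of the 12 fits that left out an array. Those 4 left out BD replicate 1, BD replicate 2, BD replicate 3 and SEW replicate 2. The other 8 fits, each without an array of sham, BD/SEW, or SEW replicate 1 or 3, gave 0 member calls. In those 8 fits 0.675% to 3.13% of all genes were called. With all arrays the members' median was -2.58 with 37 of 39 negative. Tnnc1 was at -2.47 ± 0.95 (limma adjusted p = 0.2) and Myl7 at -4.69 ± 1.92 (adjusted p = 0.23). Every BD/SEW array lay below every sham array in 33 members, against 12.2% of all genes. Without BD replicate 2, 27 members were called lower, against 2.12% of all genes. BD, SEW and BD/SEW were all set against the same 3 sham arrays, so these comparisons are not independent.

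Against BD, 0 members were called, where 0.0141% of all genes were, and 1 had an unadjusted p under 0.05. The median was -1.29 with 38 of 39 negative, and it became 0.06 with 27 positive when BD replicate 2 was left out, again with 0 calls, where 0.00703% of all genes were called. Myl7 was at -1.57 ± 1.92 (limma adjusted p = 0.99) with all arrays and at 0.58 without BD replicate 2. Nppa was at -1.88 ± 1.77 (limma adjusted p = 0.97) and likewise at 0.58 without that array. The sign of the difference between BD/SEW and BD was thus set by BD replicate 2 for both genes. Every BD/SEW array lay below every BD array in 2 members, Atp2a2 and Tbx5, against 4.55% of all genes.

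Against SEW, 0 members were called, where 10.5% of all genes were, and 1 had an unadjusted p under 0.05, against 24.2% of all genes. The median was 0.09, with 31 members positive, but this sign turned on single arrays. Without BD/SEW replicate 3 the median was -0.3 with 8 members positive, and without SEW replicate 1 it was -0.11 with 16 positive. With array weights it was -0.2 with 11 positive. Tnnc1 was higher in all BD/SEW arrays than in all SEW arrays, by 1.47 ± 0.95 (limma adjusted p = 0.4), and Tbx5 by 0.29 ± 0.13 (limma adjusted p = 0.2); 31.8% of all genes separated these groups in either direction. Without BD replicate 2 the count was again 0, where 9.99% of all genes were called.

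The interaction is the difference of BD/SEW from SEW less the difference of BD from sham, and asks whether brain death acted alike with and without the agonist. Of the members 0 were called, where 0.999% of all genes were, and 2 had an unadjusted p under 0.05. The median was 1.53, and 34 of 39 were positive. Without BD replicate 2 there were 10 calls, all positive, where 1.06% of all genes were called positive, and the median was 2.87. They were Myl2 (2.07 ± 0.25, limma adjusted p = 0.0088), Xirp1, Myom1, Ankrd1, Tnnc1, Actn2, Smpx, Ryr2, Ckm and Mb (5.0 ± 0.99, limma adjusted p = 0.043). In that fit the sham arrays were the single group in which the genes stood high. Outside sham, Myl2 and Xirp1 lay below their array's lower quartile in 8 arrays, Actn2 and Smpx in 6, Myom1 and Ryr2 in 5, and Mb in 3. Ankrd1, Tnnc1 and Ckm never did, though Ckm came close, at 5.63 in BD/SEW replicate 1 against a lower quartile of 5.58. Values this dim can hardly fall further, so for such genes the interaction cannot tell whether brain death acted alike.

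**Figure D3:**
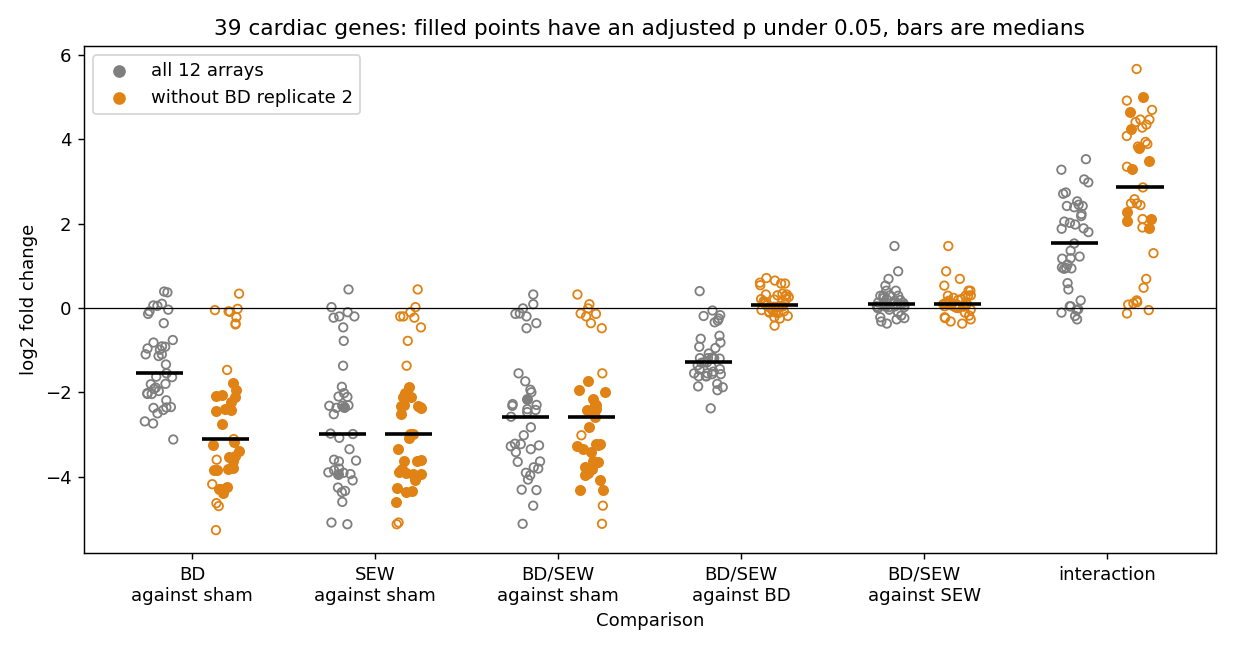
Log2 difference of each of the 39 members in the 6 comparisons, with all 12 arrays (grey) and without BD replicate 2 (orange); filled points have an adjusted p under 0.05 and bars are medians. Leaving out the array moved the median of BD against sham from -1.55 to -3.11 and that of BD/SEW against BD from -1.29 to 0.06.

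Other heart genes, from lists chosen for this purpose, were set beside the members. Of 20 measured structural genes 0 were called in SEW against sham; Pdlim3, a Z-disc protein also of smooth muscle, rose in BD against sham by 0.71 ± 0.13 (limma adjusted p = 0.04), and it was also called higher in BD/SEW against sham (0.62) and against SEW (0.94). Lmod2, the actin filament elongator of heart, was 7.98, 8.2 and 8.38 in sham and 8.98 in BD replicate 2, and 6.01 to 6.79 in the other arrays. Of 13 measured calcium and channel genes 1 was called in SEW against sham, Jph2, which joins the reticulum to the cell membrane and which fell by 0.97 on the log2 scale (± 0.25, limma adjusted p = 0.041). Srl, which encodes the reticulum protein sarcalumenin, was 8.14, 8.46 and 8.0 in sham, 9.18 in BD replicate 2 and 5.5 to 6.27 elsewhere. Of 13 energy genes 1 was called lower in SEW against sham, Esrra, an orphan nuclear receptor (-0.48 ± 0.11, limma adjusted p = 0.033), which showed no such array pattern (8.75 to 9.68) and was higher in BD/SEW than in SEW (0.71 ± 0.11, limma adjusted p = 0.0026). The interaction of Esrra was called too (0.86 ± 0.16, limma adjusted p = 0.036). Pdk4, an inhibitor of glucose oxidation, was lower in BD/SEW than in sham (-2.01 ± 0.41, limma adjusted p = 0.03) and than in SEW (-2.32 ± 0.41, adjusted p = 0.0049). Pgam2, the muscle phosphoglycerate mutase, did show the 4 high arrays, with 8.16, 8.25 and 7.63 in sham, 9.53 in BD replicate 2 and 5.07 to 6.38 elsewhere. Of 8 measured heart transcription factors 0 were called in SEW against sham. Gata4 was 6.49, 6.17 and 6.08 in sham, 6.99 in BD replicate 2 and 5.65 to 5.99 elsewhere. Besides Lmod2, Srl, Pgam2 and Gata4, the structural genes Synpo2l, Nrap, Unc45b, Sgca, Rbm20 and Rbm24 had these 4 arrays above all others. So did Jph2, Trdn, Slc8a1, Cox8b, Eno3, Cpt1b, Esrrg and Fitm1, a pattern shown by 2.05% of all genes. The margin was narrow for Rbm20 and Slc8a1, and Trdn and Fitm1 were dim in most arrays. Many other genes of these lists did not show the 4 high arrays, among them Tpm1, Gja1, Hadha, Gata6, Hand1 and Mef2c. The median difference of SEW from sham was -0.45 for the structural genes and -0.3 for the calcium and channel genes. It was -0.48 for the energy genes and -0.25 for the transcription factors, against -2.98 for the members.

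Outside all lists, the 10 genes most like the members' mean profile were found by the root mean square difference over the 12 arrays, each profile centred on its own mean. They were Mybphl (0.18 log2 units), Hjv (0.24), Cmya5 (0.34), Hamp (0.34), Rcan2 (0.35), Mylk3 (0.37), Hhatl (0.4), Mlip (0.41), Dhrs7c (0.48) and Klhl41 (0.58). Mybphl, a relative of myosin-binding protein H, was 8.6, 8.33 and 7.75 in sham and 5.17, 9.65 and 6.09 in BD. It was 5.42, 5.34 and 6.0 in SEW and 5.5, 5.32 and 6.44 in BD/SEW. Hamp, which encodes the iron hormone hepcidin, was 10.84, 10.54 and 9.76 in sham, 11.75 in BD replicate 2 and 6.43 to 8.3 in the other 8 arrays.

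Markers of other tissues were read in the same arrays, and their part in these results was not tested. The mean of 9 measured adipocyte markers was 8.34 to 9.3 in sham and 6.0 to 8.72 in BD, where BD replicate 2 gave the high end. It was 6.12 to 6.4 in SEW and 6.11 to 6.83 in BD/SEW, so this mean stood high in the same 4 arrays as heart genes. Lep (4.46 to 5.01) lay below the lower quartile in every array. Lipe did not show the 4 high arrays, with 9.89 in SEW replicate 2 against 9.82 in BD replicate 2. In SEW against sham 4 of the 9 were called lower, where 2.49% of all genes were. They were Adipoq, the hormone adiponectin (-3.65 ± 0.8, limma adjusted p = 0.027), Thrsp, a regulator of lipid synthesis (-4.35), and the lipid droplet genes Cidec (-2.87) and Plin1 (-3.28). In BD/SEW against sham 3 of the 9 were called lower, Thrsp, Plin1 and Cidec, where 1.17% of all genes were. Ucp1, the uncoupling protein of brown fat, named after its values were seen, was 9.4, 8.71 and 5.48 in sham, 8.32 in BD replicate 2, 7.33 in BD/SEW replicate 3 and 4.89 to 5.27 elsewhere. Ucp1 and Nppa thus both set BD/SEW replicate 3 above sham replicate 3. Of 4 measured mesothelial genes, Msln fell in SEW against sham (-1.5 ± 0.34, limma adjusted p = 0.032). Krt19, a keratin that other epithelia also express, rose there (0.55 ± 0.09, limma adjusted p = 0.01), and it rose in BD (0.49) and in BD/SEW (0.73) against sham as well. Wt1 was 7.17 in sham replicate 1 and 7.07 in BD replicate 2 and 4.9 to 5.71 elsewhere. The mesothelial mean was 7.98 to 9.14 in sham, 8.06 to 9.18 in BD, 7.75 to 8.08 in SEW and 7.93 to 8.15 in BD/SEW.

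Skeletal muscle markers varied much less. The mean of its 14 measured markers lay between 5.76 and 6.16 in every array, and Myod1 (4.15 to 4.39), Myh2 (3.98 to 4.26) and Myh4 (3.74 to 4.07), picked after their values were seen, lay below the lower quartile in all of them. Other markers of the list lay above it in every array: Myh1 (10.83 to 11.74, highest in BD replicate 2), Tnni2 (7.07 to 7.4), Tnni1 (6.5 to 6.85), Myog (6.43 to 6.77) and Tnnc2 (5.71 to 6.43). The widest range was that of Acta1, an actin that heart muscle also expresses, at 7.73, 7.67 and 6.66 in sham, 8.5 in BD replicate 2 and 4.93 to 5.45 elsewhere. The mean of 8 smooth muscle markers lay between 9.87 and 10.6, highest in SEW replicate 3 and lowest in SEW replicate 2.

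**Figure D4:**
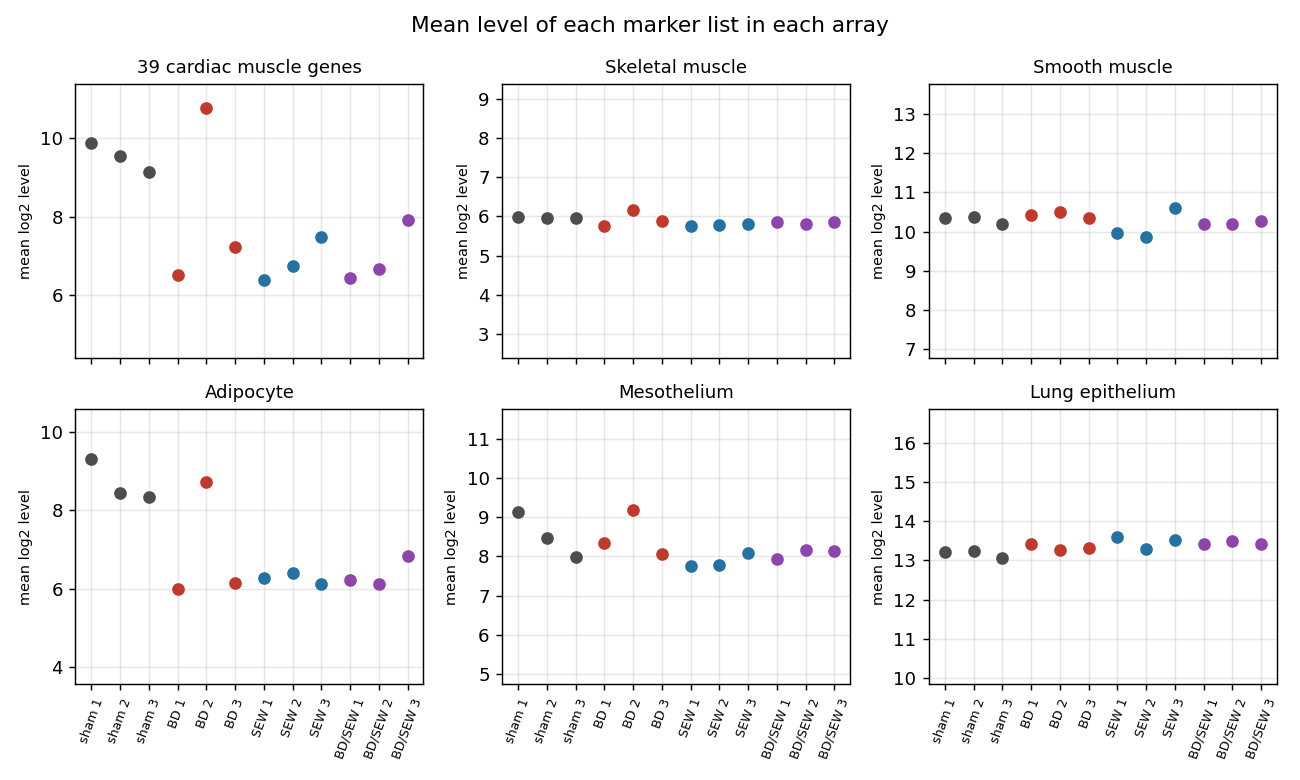
Mean log2 level of the 39 members and of 5 marker lists in each array, each panel spanning the same number of log2 units. The cardiac and adipocyte panels show the 3 sham arrays and BD replicate 2 above the rest, while the skeletal muscle panel stays between 5.76 and 6.16 and the lung epithelium panel between 13.07 and 13.6.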

How the data were processed

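Expression was measured on 12 Affymetrix arrays of rat lung. The values used were log2 probe set levels with 2 decimals, as deposited by the authors; per the submitters' processing notes the tools were MAS5, RMA and affy, with no versions or roles stated. At the same rank, values of different arrays lay within 0.22 of each other. A single symbol was annotated to 20826 probe sets; 436 had more and 9780 had none. Group means were fitted to all 12 arrays with limma 3.58.1 (lmFit and eBayes, R 4.3.3, 8 residual degrees of freedom), two-sided, with Benjamini-Hochberg adjustment over 14217 genes. The test was tried on simulated data, drawn for each gene on its own with equal spread in all groups. The members moved together and spread most in BD, so that trial does not cover their case. The members and all other lists were chosen with earlier results of these data known.

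Array values are given for called members and for the 3 members of each role with the widest range. Of other lists up to 4 genes are named, called genes first and then by range. The chamber genes, Ucp1, Lep, Lipe and most skeletal markers were named beyond this rule, after their values were seen. So were heart genes named only for showing, or not showing, the 4 high arrays. Same-numbered arrays were not taken as pairs. Alternatives were other samples in the fit, a replicate block, variance moderation, array weights, probe set choice, a filter on dim genes, centring, a stricter threshold and leaving out each array.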

Additional observations from a re-analysis of the deposited data

How the results depend on the processing

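In SEW against sham, where 2 members were called, array weights gave 11 (11.4% of all genes called, against 6.64%). A fit of only the compared arrays gave 26 (1.71%). Trend and robust moderation gave 1 (5.74%), leaving out dim genes 1 (8.81%), and the stricter threshold of 0.01 gave 0 (0.837%). In BD/SEW against sham, where 1 was called, array weights gave 32 (18.9% of all genes, against 2.9%) and a fit of only the compared arrays 27 (4.87%). Trend and robust moderation, testing every probe set, leaving out dim genes, the stricter threshold of 0.01 and the replicate block each gave 0. In these fits 0.654% to 3.82% of the genes or probe sets tested were called. Leaving out each array in turn gave 0 to 23 calls for BD against sham and 0 to 28 for SEW against sham. It gave 0 to 27 for BD/SEW against sham and 0 to 10 for the interaction. Over all genes these fits called 0.176% to 1.63%, 2.72% to 7.87%, 0.675% to 4.64% and 0.232% to 1.59%, in the same order. In an alternative chosen after seeing the data, a fit without 3 arrays (replicate 2 of BD and of SEW, and sham replicate 3) gave 25, 26, 28 and 14, while 3.47%, 6.53%, 8.19% and 2.88% of all genes were called. The cause of these changes was not tested. BD/SEW against BD and BD/SEW against SEW gave 0 calls under every alternative run. These 2 comparisons changed direction instead. Members positive in BD/SEW against BD went from 1 to 27 without BD replicate 2. In BD/SEW against SEW they went from 31 to 8 without BD/SEW replicate 3, to 16 without SEW replicate 1 and to 11 with array weights. Among the single-gene differences the report prints, signs turned when an array was left out for Myl7 in BD/SEW against BD (-3.56 to 0.58), Nppa in BD against sham (-3.6 to 0.18) and Nppa in BD/SEW against BD (-3.21 to 0.58). BD replicate 2 was the highest array and SEW replicate 1 the lowest in the members' mean under all 4 summaries tried.

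With each gene's group mean taken out, same-numbered arrays of different groups correlated between -0.19 and 0.38 (18 pairs, median 0.09, 8 above 0.1). Differently numbered arrays of different groups correlated between -0.43 and 0.29 (36 pairs, median -0.04, 4 above 0.1). Among arrays of other groups, 9 of 12 arrays correlated best with their own number. With the replicate block, SEW against sham had 2 member calls (8.24% of all genes) and the other 5 comparisons had 0 (0.0141% to 11.4%). With 3 arrays in a group and many members near background in the low arrays, amounts there are poorly measured.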
